A study of Mus musculus with 3 samples.

Results

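The kappa variable gene segments, named Igkv, are the germline pieces from which B cells build the variable part of the kappa light chain. The gene table held 127 rows whose symbol began with Igkv, among 27088 genes. The 110 with a summed count of at least 20 over the libraries of PBS-treated and SJMHE1-treated allergic mice are described here, 97 annotated as genes and 13 as pseudogenes. Just inside that minimum stood Igkv14-126-1, with 0 counts in the PBS and 21 in the SJMHE1 library, and Igkv13-78-1, with 17 and 6. Just outside stood Igkv11-106, with 13 and 6, and Igkv20-101-2, with 0 and 18. The 17 segments left out held 42 and 67 counts, and 2 of them had no count in either.

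RNA was sequenced from splenic B cells of female BALB/c mice in a model of allergic rhinitis. Mice of the PBS and SJMHE1 groups were 6 weeks old at the start and are labelled as 13 weeks old. They received ovalbumin (10 µg) with aluminium hydroxide (2 mg) intraperitoneally on days 0, 7 and 14 followed by intranasal ovalbumin (100 µg) from day 21 to day 27 and again from day 29 to day 35, and were killed on day 36. On days 0, 14 and 28 the SJMHE1 group was also given SJMHE1 (10 µg), a peptide derived from the blood fluke Schistosoma japonicum. By the study's methods the peptide was emulsified in incomplete Freund's adjuvant and PBS, with no adjuvant named, was given to the other group, so peptide and adjuvant cannot be told apart. B cells were isolated by fluorescence-activated sorting, and the samples of 3 mice per group were mixed into 1 library. The healthy Control group was not analysed here.

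Values under PBS and under SJMHE1 are those of the PBS and of the SJMHE1 library. With 1 library per group there are no replicates, and no difference below has a test. The 95% intervals given, exact for shares and their ratios and by normal approximation for the summaries over segments, cover counting error only. They hold no spread between mice, cultures or library preparations.

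A developing B cell joins 1 Igkv segment to 1 of the joining segments, Igkj, and the transcript of the joined exon is spliced to the constant exon Igkc. Each mature B cell normally carries 1 productive light chain, which its descendants keep, so the shares of segments in a population of B cells describe its kappa repertoire. A share also reflects the RNA made per cell, which is far higher in plasma cells. In bulk RNA, more cells with a segment and more RNA per cell cannot be told apart.

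The 3′ end of a segment holds the codon for the conserved cysteine and the germline start of the third complementarity-determining region, the part of the light chain that junctions diversify. The last 60 bases of the coding sequence of the 8 segments with the highest mean share are given 5′ to 3′ from the GENCODE M21 transcripts (GRCm38, the build of mm10), because they distinguish the most used light chains. Capitals run from the last in-frame cysteine codon to the end.
Igkv1-117: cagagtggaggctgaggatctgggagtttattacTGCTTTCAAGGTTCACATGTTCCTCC
Igkv1-110: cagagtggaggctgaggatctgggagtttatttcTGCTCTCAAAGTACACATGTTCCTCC
Igkv1-135: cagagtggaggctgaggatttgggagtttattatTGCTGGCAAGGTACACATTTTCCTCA
Igkv10-96: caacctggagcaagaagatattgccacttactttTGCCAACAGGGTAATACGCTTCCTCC
Igkv4-74: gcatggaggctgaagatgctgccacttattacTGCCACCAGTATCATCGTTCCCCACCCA
Igkv6-15: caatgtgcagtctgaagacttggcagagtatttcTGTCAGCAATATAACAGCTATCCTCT
Igkv9-120: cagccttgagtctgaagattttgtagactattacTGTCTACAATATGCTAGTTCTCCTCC
Igkv4-59: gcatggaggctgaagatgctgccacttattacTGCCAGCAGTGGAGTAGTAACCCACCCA
All 8 are annotated as genes, and 3 of them belong to the Igkv1 family and 2 to Igkv4.

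Other segments are close copies along the whole exon. The second exon, which encodes nearly all of the variable domain, is shown in the mm10 build for 3 such pairs to which the results return, whole for the last pair and as its final 300 bases for the others. Each pair lists a reference segment first, and capitals in the other mark the bases at which it differs.
Igkv1-117, chr6:68121528-68121827, plus strand: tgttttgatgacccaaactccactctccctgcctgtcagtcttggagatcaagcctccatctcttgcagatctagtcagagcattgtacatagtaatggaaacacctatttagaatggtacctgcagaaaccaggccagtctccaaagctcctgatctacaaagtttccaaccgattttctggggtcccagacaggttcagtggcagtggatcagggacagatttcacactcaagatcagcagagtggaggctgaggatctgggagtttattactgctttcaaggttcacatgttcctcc
Igkv1-110, chr6:68270968-68271267, plus strand: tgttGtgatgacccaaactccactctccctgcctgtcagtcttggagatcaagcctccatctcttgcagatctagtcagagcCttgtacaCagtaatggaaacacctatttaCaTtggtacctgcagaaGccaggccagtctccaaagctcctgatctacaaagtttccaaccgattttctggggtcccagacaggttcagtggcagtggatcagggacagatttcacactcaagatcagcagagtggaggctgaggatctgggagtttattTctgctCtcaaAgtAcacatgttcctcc
Igkv4-79, chr6:69042972-69043271, minus strand: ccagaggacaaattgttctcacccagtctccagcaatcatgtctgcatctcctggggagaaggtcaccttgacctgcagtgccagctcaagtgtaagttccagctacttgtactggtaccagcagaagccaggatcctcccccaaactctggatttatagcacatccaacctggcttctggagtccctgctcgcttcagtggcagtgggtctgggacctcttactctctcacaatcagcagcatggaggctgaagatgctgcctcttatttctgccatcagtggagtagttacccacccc
Igkv4-78, chr6:69059690-69059989, minus strand: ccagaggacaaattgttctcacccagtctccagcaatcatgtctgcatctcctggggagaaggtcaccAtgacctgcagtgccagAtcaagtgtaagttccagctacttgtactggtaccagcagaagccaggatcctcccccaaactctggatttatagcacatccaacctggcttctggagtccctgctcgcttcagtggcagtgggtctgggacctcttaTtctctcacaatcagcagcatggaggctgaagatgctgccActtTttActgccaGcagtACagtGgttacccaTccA
Igkv10-96, chr6:68631963-68632260, minus strand: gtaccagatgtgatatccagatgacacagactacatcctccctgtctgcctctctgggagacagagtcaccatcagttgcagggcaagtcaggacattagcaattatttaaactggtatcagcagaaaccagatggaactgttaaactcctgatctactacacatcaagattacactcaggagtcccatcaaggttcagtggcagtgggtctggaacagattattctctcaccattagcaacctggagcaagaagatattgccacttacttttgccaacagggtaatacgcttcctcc
Igkv10-94, chr6:68704508-68704805, minus strand: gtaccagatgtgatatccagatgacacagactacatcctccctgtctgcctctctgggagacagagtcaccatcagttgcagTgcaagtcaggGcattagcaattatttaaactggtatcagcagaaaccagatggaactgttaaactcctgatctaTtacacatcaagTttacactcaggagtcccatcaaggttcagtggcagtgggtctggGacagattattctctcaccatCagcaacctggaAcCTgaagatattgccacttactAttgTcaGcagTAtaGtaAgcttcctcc
The first pair differed at 10 of 313 bases, the second at 12 of 309 and the third at 16 of 298. Of the 110 segments, 107 had the 2 exons usual for a variable segment. These are reference sequences and not those of the BALB/c mice, and reads of hypermutated or strain-specific bases were counted by the authors against this reference.

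As a group, Igkv transcripts took the same part of both libraries. The PBS library held 182005 Igkv counts among 48267168 counts over all genes, and the SJMHE1 library 193515 among 51280237. Both come to 0.377% of the library, with intervals of 0.375% to 0.379% under PBS and 0.376% to 0.379% under SJMHE1. The log2 ratio of the Igkv total, SJMHE1 to PBS, was 0.0011 (interval −0.0081 to 0.010). Scaled to Igkc counts instead, this ratio was 0.076. The deposited FPKM, a level per transcript length and depth, ran from 0 to 641.93 among the 110 segments under PBS and from 0.47 to 498.36 under SJMHE1, with medians of 44.6 and 47.9.

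The genes around the kappa variable segments in the B cell receptor were also close in the pair of libraries. In CPM, counts scaled so that each library has the same total, the median log2 ratio was 0.024 for the 4 partners of the light chain in the receptor (Cd79a, Cd79b, Ighm and Ighd), with none of the 4 past 2-fold. It was 0.011 for 9 B cell markers, including Ms4a1, again with none past 2-fold. Of the 9, 5 had a log2 ratio above 0 and 4 below. Cr2 differed most, with 1262 CPM under PBS and 2015 under SJMHE1, a log2 ratio of 0.67 (0.66 to 0.69). All 9 B cell markers were abundant in both libraries, with summed levels of 18423 CPM under PBS and 18929 under SJMHE1.

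Lists of other or more differentiated cells differed between the libraries. Of 12 T cell genes, 11 were more than 2-fold lower in the SJMHE1 library, none was at 0, and the median log2 ratio of the 12 was −1.84. These 11 summed to 115 CPM under PBS and 33.5 under SJMHE1. With Lck (93.1 and 83.7 CPM), the 1 gene inside 2-fold, the list summed to 208 and 117 CPM. Of 11 plasma cell genes, 3 were more than 2-fold lower and none higher, and the list's summed level was 3320 CPM under PBS and 2365 under SJMHE1. The 3 were Ighg1 and Igha, the constant genes of switched antibody classes, and Tnfrsf17, a survival receptor of plasma cells. Ighg1 had 401 CPM under PBS and 134 under SJMHE1, and Igha 509 and 244. Jchain, which links the subunits of secreted IgM and IgA, stood at 1110 CPM under PBS and 893 under SJMHE1. By sign, 10 of the 11 lay below 0 and 1 above, which was Xbp1 (94.4 and 125 CPM). Mzb1, Prdm1 and Derl3 were among the 10, with log2 ratios of only −0.084, −0.083 and −0.10. Of 8 germinal centre genes, 4 were more than 2-fold lower, and the list summed to 301 and 240 CPM. Of 10 macrophage genes 2 were more than 2-fold higher and none lower (summed level 91.8 and 83.6 CPM). By sign, 7 lay above 0 and 3 below. The 3 were Adgre1, Csf1r and Cd68, with log2 ratios of −0.55, −0.50 and −0.90. Of 8 erythroid genes none was past 2-fold (187 and 262 CPM). Over all 18000 genes with a summed count of at least 20 the median log2 ratio was −0.032, and 5.62% were more than 2-fold higher and 8.64% lower. The part of these cells in the segment shares below was not tested.

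Usage was broad and about equally even in both libraries. The effective number of segments, the number of equally used segments that would have the same Shannon entropy, was 56.7 (interval 56.5 to 57.0) under PBS and 56.8 (56.6 to 57.0) under SJMHE1. The 10 most used segments of each library held 38.2% of its Igkv counts under PBS and 39.3% under SJMHE1. To reach 50% took 17 segments under PBS and 16 under SJMHE1, and 90% took 51 and 52. A share of at least 1% was held by 41 segments under PBS and by 37 under SJMHE1. In the PBS library 108 of the 110 segments had a count and in the SJMHE1 library all 110 did. A floor of 3 counts, used for a count of 0, is a share of 0.00165% in the PBS library, while the exact upper limit of a count of 0 is 0.00203%.

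The leading segments came from the Igkv1 family. Igkv1-117 (chromosome 6, 68121046 to 68121827, plus strand) had 14235 counts under PBS and 11208 under SJMHE1. These were 7.82% and 5.79% of all Igkv counts, a log2 ratio of shares of −0.43 (interval −0.47 to −0.40). Igkv1-110 (68270485 to 68271267, plus strand) had 10062 and 11612 counts, or 5.53% and 6.0%, and Igkv1-135 (67609713 to 67610508, plus strand) had 9444 and 11022 counts, or 5.19% and 5.70%. The rank of Igkv1-117 was 1 against 2, that of Igkv1-110 was 2 against 1, and Igkv1-135 ranked 3 in both.

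Below these, the order differed more. Igkv10-96 had 5713 counts under PBS and 9318 under SJMHE1, 3.14% and 4.82%, with a log2 ratio of 0.62 (0.57 to 0.67). Igkv4-74 had 5788 and 8583 counts, 3.18% and 4.44%, with a log2 ratio of 0.48. Igkv4-59 had 3536 and 5499 counts, 1.94% and 2.84%, with a log2 ratio of 0.55. Each of the 3 held a larger share of the SJMHE1 library, by less than 2-fold. Igkv9-120 went the other way, with 6003 counts under PBS and 3794 under SJMHE1, or 3.30% and 1.96%, a log2 ratio of −0.75 (−0.81 to −0.69) and a rank of 5 against 15. Igkv6-15 had 6146 and 5578 counts, 3.38% and 2.88%, with a log2 ratio of −0.23.

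Further members of the 15 most used segments had log2 ratios from −0.23 (Igkv8-24) to 0.37 (Igkv6-17). Igkv5-39 held 2.26% of the PBS library's Igkv counts and 2.17% of the SJMHE1 library's, with an interval of the log2 ratio that included 0 (−0.12 to 0.0065). For Igkv16-104 the shares were 1.87% and 1.89%, with an interval of −0.058 to 0.078. Igkv8-24 held 2.41% and 2.05%, Igkv19-93 2.04% and 2.37%, Igkv6-32 1.82% and 1.92%, Igkv6-17 1.63% and 2.10%, and Igkv12-44 1.72% and 1.98%. The share intervals of the libraries overlapped for 39 of the 110 segments and for 1 of the 10 with the highest mean share, Igkv5-39.

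**Figure D1:**
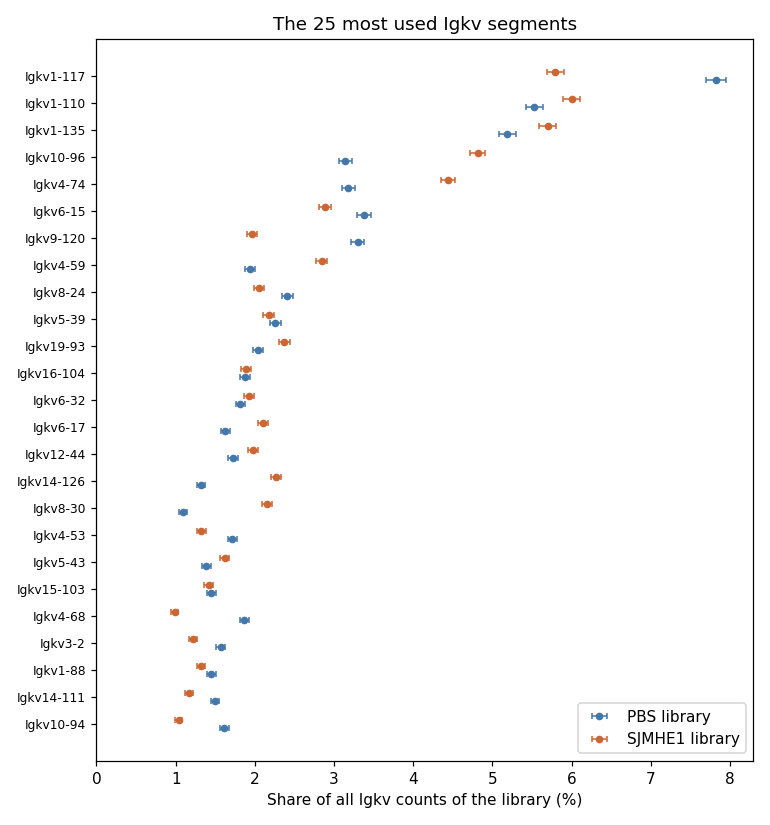
Share of all Igkv counts (x axis, %) of the 25 segments with the highest mean share, 1 row per segment, in the PBS and SJMHE1 libraries. Points are shares and bars are 95% exact intervals of counting error. Igkv1-117 leads the PBS library at 7.82% and Igkv1-110 the SJMHE1 library at 6.0%, and Igkv10-96 and Igkv9-120 show wide gaps in opposite directions.

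The shares of the segments followed each other across the libraries. Over the 108 segments with counts in both, Pearson's r of the log2 shares was 0.96 and Spearman's rho 0.96, as a description across segments that share their libraries and are not replicates. The lists of the 10 most used segments had 8 in common and those of the 20 most used 15. The total variation distance, the part of the Igkv counts that would have to pass to other segments to turn one repertoire into the other, was 12.2% (interval 11.9% to 12.5%).

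Much of that distance lay in a few segments. The gains in share summed to 12.2 percentage points over 60 segments, and the 5 largest held 47.9% of it. They were Igkv10-96 (1.68 points), Igkv4-74 (1.26), Igkv8-30 (1.06), Igkv14-126 (0.949) and Igkv4-59 (0.899). Igkv8-30 had 1988 counts under PBS and 4167 under SJMHE1, and its rank was 40 against 11. Igkv14-126 had 2401 and 4390 counts and ranked 28 against 9. The 5 largest losses held 46.3% of the points lost over the other 50 segments. They were Igkv1-117 (−2.03 points), Igkv9-120 (−1.34), Igkv4-68 (−0.881), Igkv3-10 (−0.832) and Igkv10-94 (−0.576). Igkv4-68 had 3400 counts under PBS and 1910 under SJMHE1 and ranked 13 against 39.

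In shares, 23 of the 110 segments (20.9%) lay more than 2-fold apart, 17 higher and 6 lower in the SJMHE1 library. Over all genes with a summed count of at least 20, compared in CPM, 14.3% lay past 2-fold, 5.62% higher and 8.64% lower. Scaled by all gene counts, as the other genes are, the number of segments was again 23. The median log2 ratio of the segments was 0.054.

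The share past 2-fold was higher at low counts, for the segments as for all genes. Of the 20 segments with a summed count under 200, 12 were past 2-fold (60%), against 36.3% of all genes in that range. From 200 up to 2000 counts it was 8 of 35 (22.9%), against 7.42%. From 2000 counts on, 3 of 55 were past 2-fold (5.45%), against 0.709%. At 200 counts or more, 11 of 90 segments were past 2-fold (12.2%), against 3.51% of all genes, with 7 higher against 1.22% and 4 lower against 2.29%. The standard deviation of the log2 ratios was 0.62 over these 90 segments and 0.44 over the 12095 genes of that depth. Genes as a whole are not a matched set for germline segments, so these shares are a background and not a test. The heavy chain segments, Ighv, had 110 rows with a summed count of at least 20, of which 12 were more than 2-fold higher and 6 lower (16.4%). At 200 counts or more it was 4 of 78 (5.13%).

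**Figure D2:**
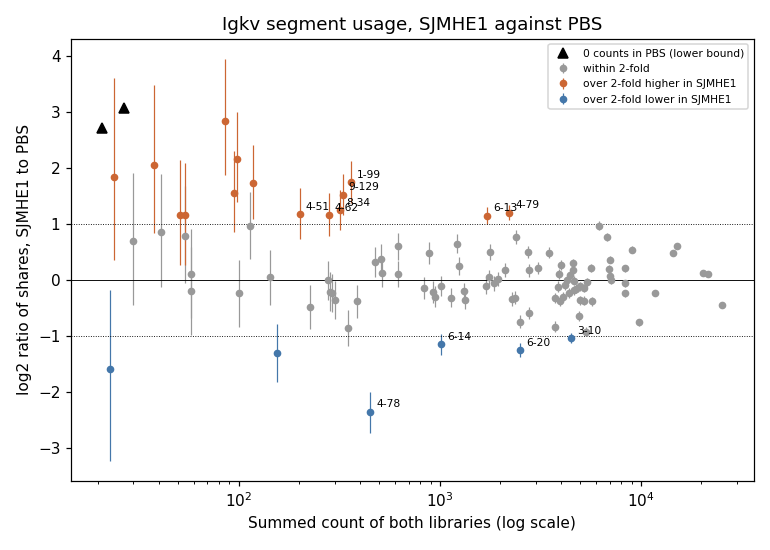
Log2 ratio of shares, SJMHE1 to PBS (y axis), against the summed count of both libraries (x axis, log scale) for the 110 segments. Bars are 95% exact intervals of counting error, and dashed lines mark 2-fold. Triangles, labelled as lower bounds, are values at the floor of 3 counts for the 2 segments with 0 counts in the PBS library. The spread is wide at low counts, and at 2000 counts or more 3 of 55 segments lie past 2-fold.

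Among segments with at least 200 counts, the largest differences lay in little used segments. Igkv4-78 had 374 counts under PBS and 78 under SJMHE1, a log2 ratio of −2.35 (−2.72 to −1.99). Igkv1-99 had 79 and 283 counts, a log2 ratio of 1.75 (1.39 to 2.13). Igkv9-129 had 81 and 248 counts, with a log2 ratio of 1.53 (1.16 to 1.91). The intervals of all 3 lay wholly past 2-fold.

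The same held for 3 better covered segments. Igkv4-79 had 641 counts under PBS and 1570 under SJMHE1, or 0.352% and 0.811%, a log2 ratio of 1.20 (1.07 to 1.34). For Igkv6-13 the counts were 511 and 1211 and the log2 ratio 1.16 (1.01 to 1.31). Igkv6-20 had 1730 and 775 counts, or 0.951% and 0.400%, with a log2 ratio of −1.25 (−1.37 to −1.12). Igkv6-13 and Igkv6-20 belong to one family and differed in opposite directions.

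The remaining named segments of that depth had intervals that reached inside 2-fold. Igkv8-34 had 90 counts under PBS and 228 under SJMHE1 (log2 ratio 1.25, interval 0.89 to 1.62), and Igkv4-51 had 59 and 142 (1.18, 0.73 to 1.64). For Igkv6-14, with 683 and 329 counts, the log2 ratio was −1.14 (−1.34 to −0.95). Igkv3-10 had 2960 and 1537 counts, 1.63% and 0.794%, with a log2 ratio of −1.03 (−1.12 to −0.94), and for Igkv4-68 it was −0.92 (−1.0 to −0.84). Of the 43 segments with a mean share of at least 1%, Igkv3-10 alone was past 2-fold, and the log2 ratios of these 43 ran from −1.03 to 0.98.

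Over all 110 segments, 9 intervals lay wholly above 2-fold and 2 wholly below. Of the 9, 5 belonged to segments of fewer than 200 summed counts, named here after their values were seen. Igkv18-36, the only member of its family, had 10 counts under PBS and 76 under SJMHE1 (log2 ratio 2.84, interval 1.88 to 3.95). Igkv3-3 had 17 and 81 counts, and Igkv4-81 had 26 and 92. Igkv12-47, a pseudogene, had 0 counts against 27, which is 8.46-fold higher with the PBS library set to the floor of 3 counts. Igkv14-126-1, also a pseudogene, was 6.58-fold higher on the same floor. The exact lower limits of the log2 ratio lie below these floor values, at 2.68 for Igkv12-47 and 2.29 for Igkv14-126-1. Both reached the count minimum only through the library in which they were high. Without them 7 intervals lay wholly above 2-fold, and 21 segments were past it, 15 of them higher.

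Pseudogenes, which cannot encode a working chain, held little of the counts. The 13 with at least 20 counts made up 0.334% of Igkv counts in the PBS library (interval 0.308% to 0.361%) and 0.348% in the SJMHE1 library (0.323% to 0.376%). The most abundant were Igkv4-77, with 165 and 138 counts, Igkv2-107, with 128 and 98, and Igkv2-116, with 108 and 47. Of the 13 pseudogenes 7 lay past 2-fold, and of the 97 genes 16, against 14.3% of all genes. Depth differed between these groups. All 7 were among the 11 pseudogenes under 200 counts, a range in which 5 of 9 segments annotated as genes and 36.3% of all genes lay past 2-fold. Igkv4-77 and Igkv2-107 were the only pseudogenes with 200 counts or more.

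The shares were also summed by family. The 110 segments fell into 19 families, taken from the number before the hyphen. The 10 segments of Igkv1 held 21.0% of the counts under PBS and 19.9% under SJMHE1. The 30 of Igkv4 held 18.7% and 20.5%, so the largest family was Igkv1 under PBS and Igkv4 under SJMHE1. Within Igkv4, 20 segments had a log2 ratio above 0 and 10 below.

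Some families also differed in their summed share. Igkv9 (4 segments) held 4.65% (4.56% to 4.75%) of the PBS and 3.26% (3.18% to 3.34%) of the SJMHE1 library, a log2 ratio of −0.51. Of its segments 2 were above 0 and 2 below. The most used, Igkv9-120, held 70.9% of the family's counts under PBS and 60.2% under SJMHE1. Igkv3 (9 segments) held 8.56% and 6.86%, a log2 ratio of −0.32, with 7 segments below 0 and 2 above. The 3 segments of Igkv10 held 4.87% and 6.01%, a log2 ratio of 0.30, where Igkv10-96 was higher and Igkv10-94 lower in the SJMHE1 library. Among smaller families, the 2 segments of Igkv11 held 0.474% and 0.818%, a log2 ratio of 0.79. Igkv6 stood at 10.5% and 9.80%, Igkv8 at 8.35% and 8.77%, Igkv5 at 5.08% and 5.45%, Igkv12 at 4.36% and 4.07% and Igkv14 at 3.27% and 3.84%. No family of more than 1 segment lay past 2-fold.

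**Figure D3:**
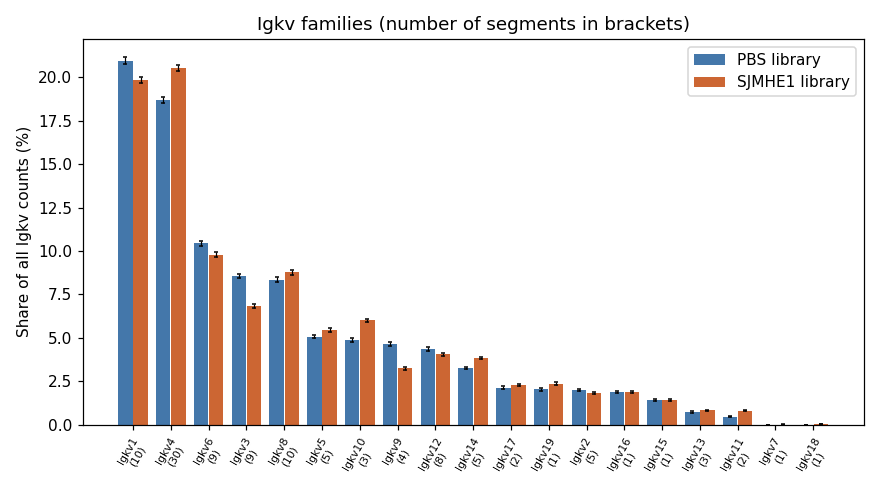
Share of all Igkv counts (y axis, %, from 0) by Igkv family in the PBS and SJMHE1 libraries. The number of segments is in brackets and bars carry 95% exact intervals of counting error. Igkv1 and Igkv4 hold the most counts, between 18.7% and 21.0%, and Igkv9 and Igkv3 are lower and Igkv10 higher in the SJMHE1 library.

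The segments lie in a single cluster on chromosome 6 (mm10), from 67555497 to 70704177, a span of 3149 kb. The first joining segment, Igkj1, starts at 70722562, and Igkc lies from 70726435 to 70726966. The distance of a segment to Igkj1 ran from 18.4 kb (Igkv3-1) to 3166 kb (Igkv2-137). Segments on the plus strand join by deletion of the DNA between them and Igkj, and those on the minus strand by its inversion. The 44 segments on the plus strand held 45.9% of Igkv counts under PBS and 43.3% under SJMHE1, and the 66 on the minus strand held 54.0% and 56.7%. A cell can replace its first rearrangement by joining another Igkv segment to a later Igkj segment.

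Usage was spread over the whole cluster. When the span is divided into 4 stretches of equal length, the stretch nearest Igkj1 (32 segments) held 27.5% of the PBS and 25.6% of the SJMHE1 library. The next held 23.9% and 25.5% (30 segments), the one after it 16.9% and 18.8% (23), and the farthest 31.6% and 30.1% (25). The farthest stretch ranked first in both libraries and holds Igkv1-117, Igkv1-110 and Igkv1-135. Both outer stretches held less, and both inner stretches more, of the SJMHE1 library, by log2 ratios between −0.11 and 0.15. Segments past 2-fold were found in every stretch.

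**Figure D4:**
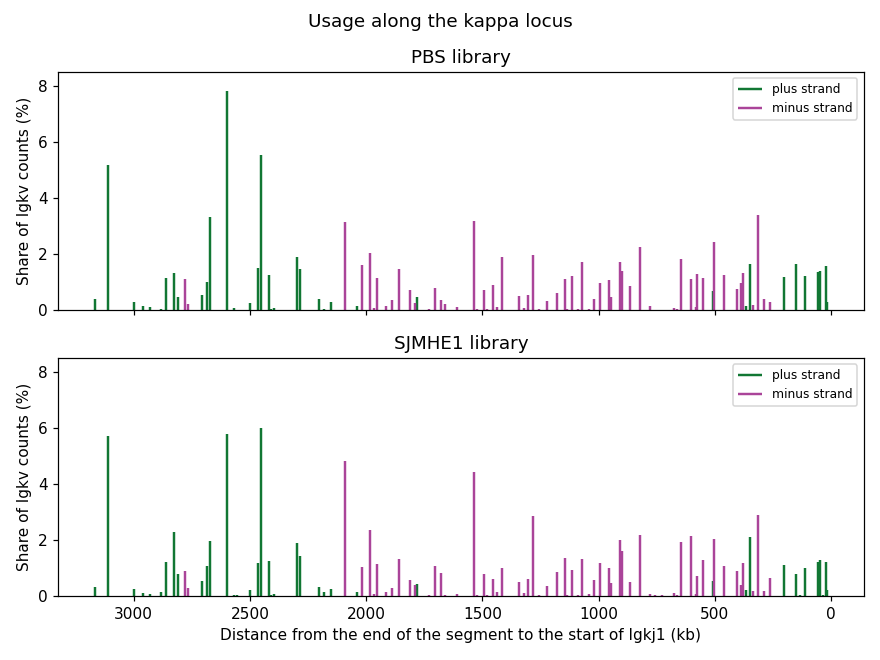
Share of Igkv counts (y axis, %) of each segment against its distance to the start of Igkj1 (x axis, kb, nearest at the right), in the PBS library (upper panel) and the SJMHE1 library (lower panel). Colours give the strand. High and low segments alternate along the whole cluster in both libraries, and the tallest lines lie in the farthest stretch.

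Close copies were compared because a read can be placed on the wrong one. Over the spliced transcripts, a median of 23.4% of a segment's 50-base windows also occurred in another gene. For 24 segments no window was shared, for 49 under 20% and for 19 over 50%. How the authors' pipeline placed reads with several matches is not given in the sources used here. Igkv4-78 and Igkv4-79, the second pair of exons printed above, had 96.1% identity and 39.2% of windows in common, and were the furthest apart of the pairs compared, with log2 ratios of −2.35 and 1.20. Summed, this pair had 1015 counts under PBS and 1648 under SJMHE1, a log2 ratio of 0.61 (0.50 to 0.73), inside 2-fold. The sum of a pair with opposite signs lies between its members' values however the reads were placed, and read placement was not tested.

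In all, 19 pairs of segments were each other's nearest copy, with at least 90% identity of the second exon and 200 summed counts each. The log2 ratios had opposite signs in 10 pairs and the same sign in 9, and differed by a median of 0.76. Igkv1-110 and Igkv1-117 (96.8% identity) summed to 24297 counts under PBS and 22820 under SJMHE1, a log2 ratio of −0.18, where the segments alone had 0.12 and −0.43. Igkv3-10 and its copy Igkv3-5 (98.1% identity) gave −0.57 when summed, against −1.03 for Igkv3-10 alone. Igkv6-13 and its copy Igkv6-23 (96.0% identity) gave 0.15 (0.074 to 0.22) when summed, against 1.16 for Igkv6-13 alone. The gene with which Igkv6-13 shared most windows was Igkv6-14 (23.5%), which had a log2 ratio of −1.14. Igkv6-20 and its copy Igkv6-29 (98.3% identity) gave −1.13 (−1.25 to −1.02) when summed, an interval wholly past 2-fold. Igkv6-29 had only 152 and 138 counts, and Igkv6-20 had 1730 and 775. The sum therefore had to lie near the log2 ratio of Igkv6-20 alone (−1.25). Igkv10-96 and Igkv10-94, the last pair of exons printed, are not among the 19, since Igkv10-95 is nearer to Igkv10-94. With 94.6% identity, they had log2 ratios of 0.62 and −0.64. Among the 6 segments of at least 200 counts with intervals wholly past 2-fold, Igkv1-99 shared 3.06% of its windows and Igkv9-129 14.8%, while Igkv6-13 shared 31.9%, Igkv4-79 55.3%, Igkv6-20 64.1% and Igkv4-78 67.6%. Igkv18-36 shared none. Among the 49 segments under 20%, chosen after seeing the data, 12 were more than 2-fold higher and 1 lower. Over all genes with a summed count of at least 20, compared in CPM, 5.62% were higher and 8.64% lower. Depth was not matched. The 49 include segments of fewer than 200 summed counts, a range in which 36.3% of all genes lay past 2-fold. Among the 12 are Igkv12-47 and Igkv14-126-1, with 0 counts in the PBS library. Igkv18-36, Igkv5-37, Igkv11-114 and Igkv1-115, also among them, had fewer than 20 there. Igkv2-137 overlaps another annotated gene, Gm42889, and whether the counting used strand is not given in the sources used here.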

How the data were processed

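Sorted splenic B cells of 3 mice per group were mixed into 1 library per group, depleted of ribosomal RNA and sequenced. The authors deposited 1 table of 27088 genes with raw read counts and FPKM per library. The submitters' processing notes name HISAT2, StringTie and mm10. Of 6 value columns, 2 match no sample name and were not used, and no comparison with Control was made. The columns are those of the PBS library (48267168 counts) and the SJMHE1 library (51280237 counts).

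Each segment's share of all Igkv counts was computed with an exact Clopper-Pearson interval (Python 3.11.15, scipy 1.17.1). The log2 ratio of shares has an exact interval conditional on the summed count. A count of 0 was set to a floor of 3 counts. Past 2-fold means an absolute log2 ratio above 1. The deposited counts of 1 library per group allow no test, so edgeR 4.0.16 and DESeq2 1.42.0 gave only library scalings. All 127 Igkv rows matched GENCODE M21 by start, end and strand. The RefSeq tables held no Igkv entry. The scripts were tested on simulated data.

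Named segments were the 15 with the highest mean share, the 5 highest and 5 lowest log2 ratios at 200 counts or more, those of that depth with intervals wholly past 2-fold, the 3 most abundant pseudogenes, and those next to the count minimum. Members and gene lists were chosen with earlier results of these data known.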

Additional observations from a re-analysis of the deposited data

How the results depend on the processing

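The number of segments past 2-fold was 23. It was 13 of 95 with a summed count of at least 100 (8 higher, 5 lower), 39 at a 1.5-fold threshold (27 higher, 12 lower), and 13 among the 49 segments with under 20% of windows shared, an alternative added after seeing the data. It was 23 with all-gene scaling, without Igkv1-117 or with a pseudocount of 1, 21 in FPKM, 31 without a count minimum and 16 among segments annotated as genes. The log2 ratio of the Igkv total was 0.032 with edgeR TMM library sizes, 0.051 with DESeq2 size factors and 0.076 scaled to Igkc, all above the upper bound of 0.010 that counting error gave. The effective number was 57.8 in both libraries in FPKM and 55.8 in both among segments annotated as genes. The total variation distance was 10.7% among the 49 segments of few shared windows, and 12.3% in FPKM, 12.2% without a count minimum and 11.9% without Igkv1-117.

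No paired analysis was possible because only 1 library stands for either group, and for that reason no replicate was left out and no edgeR quasi-likelihood test was fitted. Alternatives with Control were not run. Counting error was small for the most used segments, and the spread between mice is unknown.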

Other observations

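The joining segments stood in the same order in both libraries, though the intervals of Igkj2 and Igkj1 overlapped under SJMHE1 and those of Igkj4 and Igkj5 under PBS. Of all Igkj counts (11134 under PBS and 11957 under SJMHE1), Igkj1 took 32.7% and 32.8%, Igkj2 35.0% (34.1% to 35.9%) and 32.9% (32.1% to 33.8%), Igkj4 15.3% and 16.4%, and Igkj5 14.8% and 14.5%. Igkj3 took 2.21% (1.94% to 2.50%) and 3.40% (3.09% to 3.74%), the largest gap among the 5 on a relative scale. None of the 6 kappa constant and joining genes lay past 2-fold in CPM (median log2 ratio 0.0019).

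The lambda light chain, the alternative to kappa, was lower in the SJMHE1 library. Lambda constant genes held 13.1% (13.0% to 13.3%) of Igkc and Iglc counts under PBS and 12.1% (12.0% to 12.2%) under SJMHE1, and Iglv segments held 8.64% and 7.22% of Igkv and Iglv counts. Of 10 lambda genes 8 had a log2 ratio below 0, and the median was −0.19. The 2 above 0 were Iglv3, with 2512 and 3376 counts (log2 ratio 0.34, interval 0.26 to 0.41), and Iglc4, with 25 and 69 counts. Iglc4 was the only one of the 10 past 2-fold. There were 0.784 Igkv counts per Igkc count under PBS and 0.826 under SJMHE1. Of 7 genes of the surrogate light chain and of recombination, 3 had a summed count of at least 20. Rag1, a subunit of the V(D)J recombinase, had 30 and 11 counts, Dntt, which adds bases at junctions, had 27 and 0, and Vpreb3 had 1147 and 1280.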
